A study of Mus musculus with 4 samples.

Results

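The mature miRNAs of the miR-290 to miR-295 cluster examined here, 7 of the 567 mouse miRNAs on the arrays, were measured in RNA of Sertoli cells purified from adult mice. They are mmu-miR-290-5p, mmu-miR-290-3p, mmu-miR-291a-3p, mmu-miR-292-5p, mmu-miR-292-3p, mmu-miR-294 and mmu-miR-295, written below without the mouse prefix, and they were chosen by name, as miRNAs of early germ cells whose signal bears on germ cell RNA carried over into a Sertoli cell preparation. The array holds 14 arms of the cluster. These 7 are the arms whose detection flag was set on at least 1 array, and the other 7 were flagged on no array, so the number of members detected is a description and not a test.

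The study compared 3 groups of adult male B6129 mice. Sham mice received an implanted tube and saline. Flut+Acy mice received flutamide, which blocks the androgen receptor, through an implanted tube and acyline, a GnRH antagonist that lowers gonadotropins and testicular testosterone, by injection. Flut+Acy+T mice received the same flutamide and acyline with testosterone added. By the labels each RNA came from Sertoli cells pooled from 5 to 7 mice, and it was hybridized to an Agilent miRNA array, with 2 arrays from Flut+Acy and 1 from each of the other groups. The labels do not say whether the Flut+Acy arrays hold separate pools, and the study describes the cells as pooled within a group, so the pair may share a pool. The p-values below measure only the spread between those arrays, which may be technical. Both drugs act on the whole animal, and a pool hides the spread between mice. In such bulk RNA, fewer cells of a type and less RNA per cell cannot be told apart.

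The miR-290 to miR-295 cluster is made as a single primary transcript in mouse embryonic stem cells, where it is among the most abundant miRNA clusters, and it is expressed in primordial germ cells and falls as cells differentiate. Its main 3p arms share a seed, the stretch of the miRNA that pairs with target transcripts, and are known to speed the passage of stem cells from the first gap phase into DNA synthesis. Sertoli cells are the somatic nurse cells of the seminiferous tubule, and germ cells at all stages adhere to them.

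The mature sequences are shown because the arms fall into few seed groups and the closest relatives could share signal on the array. They are from RefSeq (GRCm38.p6), 5′ to 3′, with the seed (bases 2 to 8) in capitals; 6 of the 7 members had an entry. The 5p arms come first.
miR-290-5p: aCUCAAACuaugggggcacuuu
miR-292-5p: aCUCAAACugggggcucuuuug
miR-290-3p: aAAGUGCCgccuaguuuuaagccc
miR-291a-3p: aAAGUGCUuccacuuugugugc
miR-294: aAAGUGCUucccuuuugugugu
miR-295: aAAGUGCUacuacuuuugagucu

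Both 5p arms carried the seed CUCAAAC and were identical at 15 of 22 positions counted from the 5′ end. Among the 3p arms, miR-291a-3p, miR-294 and miR-295 carried AAGUGCU. miR-291a-3p and miR-294 were the closest pair, identical at 19 of 22 positions, while miR-290-3p differed from this group in the last base of its seed. The sequence for miR-292-3p is not shown. By the positions in the array files (mm9), the probes of the 7 miRNAs lie on chromosome 7 between 3218647, in miR-290-5p, and 3220838, in miR-295, in 5 miRNA genes (Mir290a, Mir291a, Mir292, Mir294 and Mir295).

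Each miRNA was measured by 20 spots spread over 2 to 4 probes, and the scanner software combined them into a total signal with an error and a detection flag. The arrays were not alike in depth of signal or noise. Of the 567 mouse miRNAs 193 were detected for Sham, 275 and 270 in the Flut+Acy pair, but 102 with testosterone. The dimmest miRNA called detected had a total signal of 238 units on the Flut+Acy+T array, against 0.766 to 2.67 units elsewhere. Its 672 negative control spots had an SD of 1326 units, against 2.72 to 7.45 units elsewhere, and 535 of its 12493 spots were marked as nonuniform, against 0 to 4. This noise touches each Flut+Acy+T value below.

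In total signals before normalization, 1 member was detected on Sham, all 7 on both Flut+Acy arrays, but again 1 with testosterone. The member seen on Sham was miR-290-5p and the one seen on Flut+Acy+T was miR-294. The other 6 were detected in the Flut+Acy pair but not on Sham, a pattern held by 13.1% of all mouse miRNAs. Detection in that pair but not with testosterone, seen for 6 members, was held by 31.7%. The pattern of miR-294, detected with testosterone but not on Sham, was held by 4.41%.

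**Figure D1:**
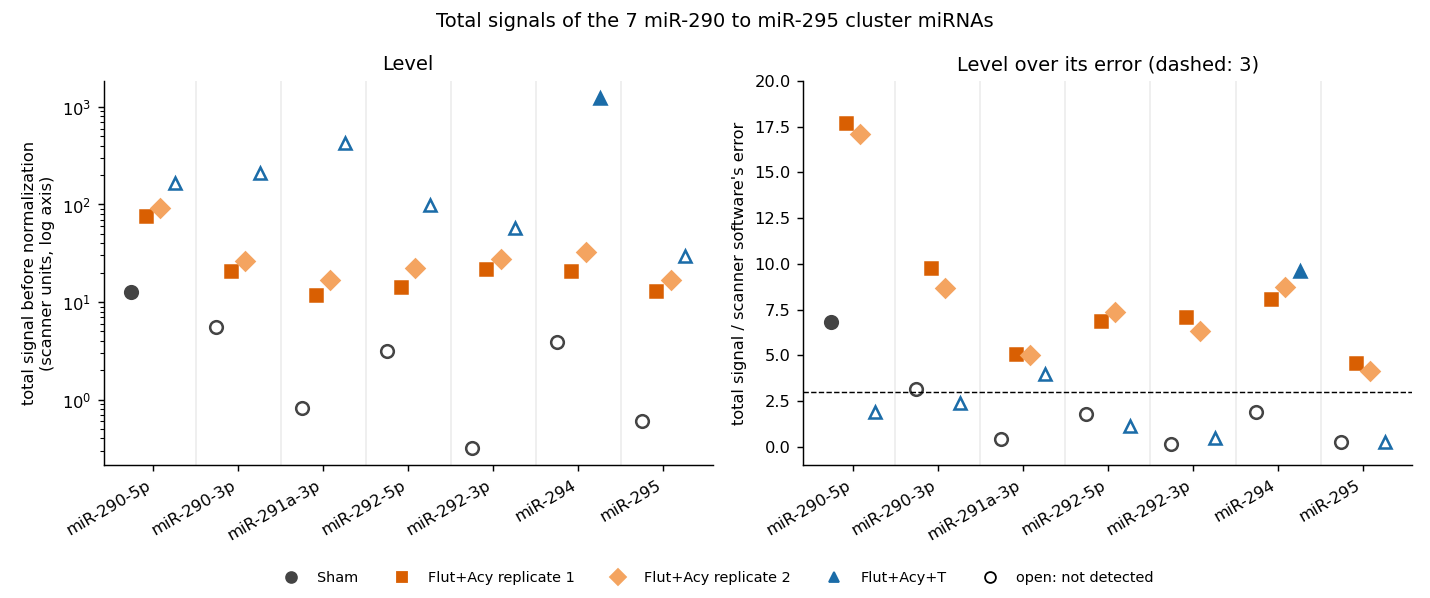
The left panel plots the total signal before normalization of each of the 7 miRNAs on each array (scanner units, log axis), and the right panel the same signal divided by its error. Filled symbols are detected. Both Flut+Acy arrays lie above Sham for every miRNA, and the Flut+Acy+T signals, though higher still, exceed 3 times their error for miR-291a-3p and miR-294 alone.

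miR-290-5p, the brightest member on Sham and Flut+Acy, had a total signal of 12.6 units on Sham (error 1.86), 76.8 and 92.7 units on Flut+Acy (errors 4.33 and 5.42) and 165 units on Flut+Acy+T (error 88.1). It was called detected everywhere but with testosterone, and both Flut+Acy values lay well above the Sham value. On Flut+Acy+T its signal was under 3 times its error and was not called detected. By rank it was a miRNA of middling brightness, placed 151st, 135th, 132nd and 176th of 567.

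The other 5p arm, miR-292-5p, was dimmer. Its total signal was 3.18 units on Sham (error 1.76), 14.2 and 22.4 units on Flut+Acy (errors 2.07 and 3.03) and 98.9 units on Flut+Acy+T (error 88.1). Only the Flut+Acy signals were detected.

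Of the 3p arms, miR-290-3p gave 5.57 units on Sham, 20.9 and 26.5 units on Flut+Acy and 211 units on Flut+Acy+T. Its Sham signal was 3.15 times its error although the flag was not set there, which made it the second brightest member on Sham. miR-292-3p gave 0.323 units on Sham, 22.02 and 27.8 units on Flut+Acy and 56.8 units on Flut+Acy+T, where its error was 123 units. Its Sham signal was far below its error of 2.46 units, so the groups were separated by the absence of a measurable level on Sham.

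The 3 arms with the seed AAGUGCU also lacked a detected level on Sham. miR-291a-3p gave 0.826 units on Sham, 11.7 and 16.7 units on Flut+Acy and 426 units on Flut+Acy+T (error 107). miR-294 gave 3.87 units on Sham, 20.6 and 32.4 units on Flut+Acy and 1218 units on Flut+Acy+T (error 127). miR-295 gave 0.607 units on Sham, 12.8 and 16.9 units on Flut+Acy and 29.8 units on Flut+Acy+T (error 123). The Flut+Acy arrays lay above Sham for all 3. miR-294 was the only one detected on Flut+Acy+T, although the signal of miR-291a-3p there was above the lowest signal of a detected miRNA on that array.

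Apart from miR-290-5p, the members were among the dimmer miRNAs detected on Flut+Acy. The ranks of all 7 there ran from 132nd to 244th of 567, against 275 and 270 detected. Flut+Acy replicate 1 was lower than replicate 2 for all 7, at 0.64 to 0.83 of it. On Flut+Acy+T the lowest error of a member was 88.1 units, so a signal had to reach 264 units to pass 3 times it. The brightest member on Flut+Acy, at 92.7 units, would not have reached it. On signals before normalization, a level like that of Flut+Acy would thus have lain within 3 errors on the Flut+Acy+T array.

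Signals before normalization also carry each array's overall brightness. The positive total signals of all mouse miRNAs summed to 57939.5 units on Sham, 139602 and 161460 units on Flut+Acy, and 201919 units on Flut+Acy+T. For miR-290-5p the ratio of each Flut+Acy array to Sham was 6.08 and 7.34. Over the 189 miRNAs detected in the Sham array and the Flut+Acy pair alike the median ratio was 2.68 and 3.15, and 40 of them were at or above miR-290-5p on each array. miR-290-5p thus stood above the typical miRNA in this ratio but among many others.

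To compare groups, quantile normalization was applied to the total signals of the 4 arrays, which gives all arrays the same distribution of values, floored at 5.46 units, converted to log2 and fitted with limma. The comparison of Flut+Acy with Sham addresses the joint loss of androgen action and gonadotropins. The study also reports loss of germ cells with this treatment. On these arrays the parts of androgen, gonadotropins and altered germ cell content cannot be told apart. Of the 7 members, 4 were higher in Flut+Acy, 1 was lower and 2 did not pass the test, against 25.5% of the 298 miRNAs tested that were higher and 28.5% that were lower (54.0% in all). Since 6 members had no detected level on Sham and entered the test through another group, these counts are a description. The median log2 difference of the members was 0.32, and that of all miRNAs tested was -0.15. With most other settings that kept the members in the test, between 3 and 7 were higher and none was lower. With no filter on detection none was higher and 1 was lower, beside 16 and 47 of all 567. Without the Flut+Acy+T array 2 were higher and 1 was lower. All 7 were higher with no normalization alone, where 218 of all 298 were higher and 0 lower. Scaled to the 75th percentile of the miRNAs detected on all arrays 4 were higher, beside 111 higher and 30 lower of all 298. Scaled to that of all miRNAs 3 were higher, beside 84 higher and 111 lower. The spread in each such test comes from the Flut+Acy pair alone.

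miR-290-5p was the member measured above background on both sides. Its normalized log2 signal was 6.50 on Sham and 6.79 and 6.82 on Flut+Acy, a difference of 0.31 (SE 0.03, adjusted p = 0.0430 by limma). The Flut+Acy arrays were close together and both above Sham. Normalized and fitted without the Flut+Acy+T array, the difference was 0.33 and no longer passed the test (adjusted p = 0.0650 by limma), nor did it with processed spot signals (0.30, adjusted p = 0.0684 by limma). With the arrays scaled instead to the 75th percentile of the miRNAs detected on all of them it was 1.39.

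miR-292-3p showed the largest difference of the members, but its size rests on the processing, since Sham was at the floor. It was 5.39 with 1 unit as the floor and 0.35 with normexp. Its normalized log2 signal was at the floor of 2.45 on Sham and 5.36 and 5.41 on Flut+Acy, and the fitted difference was 2.94 (adjusted p = 0.0104 by limma). Where a miRNA was detected in 1 group alone, the other group was given the higher of its own signal and the lowest signal of a detected miRNA there, which sets a bound. This bound put Flut+Acy at least 1.77-fold higher for miR-292-3p. Without the Flut+Acy+T array the fitted difference was 1.76 (adjusted p = 0.0126 by limma).

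miR-295 and miR-291a-3p, likewise at the floor on Sham, had fitted differences of 2.15 (adjusted p = 0.0232 by limma) and 2.04 (adjusted p = 0.0260 by limma). The bound for miR-295 was at least 1.03-fold, and for miR-291a-3p the bound was under 1 and gives no fold. Without the Flut+Acy+T array these differences were 0.98 for miR-295 and 0.90 for miR-291a-3p, and the latter no longer passed (adjusted p = 0.0548 by limma), nor did it with scaling to the 75th percentile of all miRNAs (1.09, adjusted p = 0.0765 by limma).

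miR-294 and miR-292-5p did not pass the test between Flut+Acy and Sham. The normalized log2 signal of miR-294 was 5.07 on Sham and 5.27 and 5.51 on Flut+Acy, a difference of 0.32 (adjusted p = 0.293 by limma). That of miR-292-5p was 4.87 on Sham and 4.81 and 5.07 on Flut+Acy (adjusted p = 0.814 by limma), so Sham lay between the Flut+Acy arrays.

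miR-290-3p was the member lower in Flut+Acy, by a small amount. Its normalized log2 signal was 5.37 on Sham and 5.29 on both Flut+Acy arrays, a difference of -0.08 (adjusted p = 0.0430 by limma). It held the 209th place on both Flut+Acy arrays, so quantile normalization gave it equal values and a standard error of 0.01. It was detected on Flut+Acy and not on Sham, its signal before normalization was higher on both Flut+Acy arrays, and the direction turned with scaling to the 75th percentile of the miRNAs detected on all arrays (0.73), no normalization (2.08) and the deposited normalized table (0.37). Scaled to the 75th percentile of all mouse miRNAs it was -0.10, and it did not pass there or with processed spot signals, normexp or a floor of 1 unit (adjusted p = 0.570, 0.0789, 0.236 and 0.0548 by limma).

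**Figure D2:**
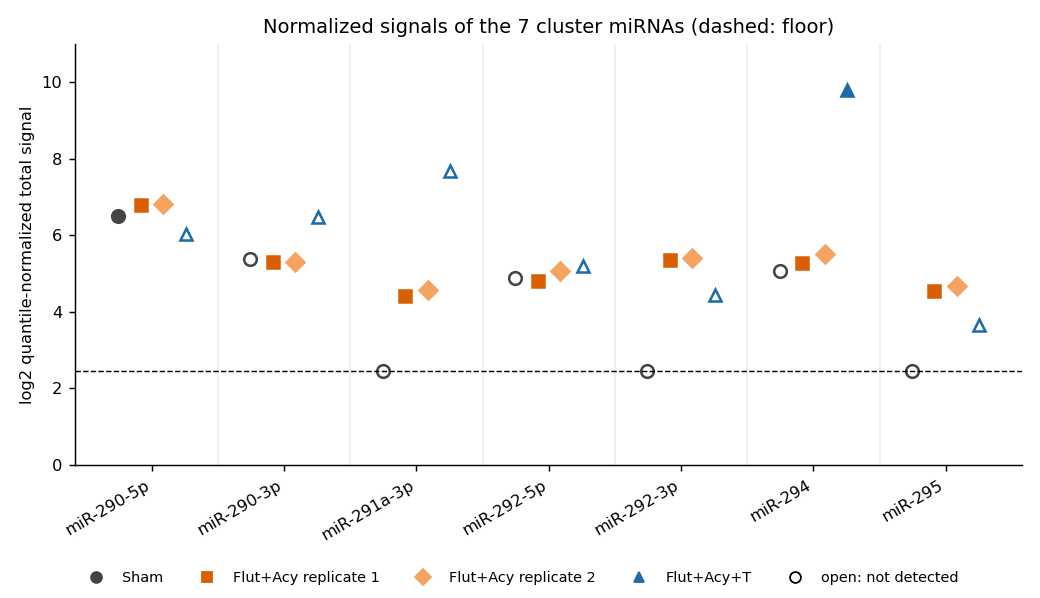
Each point is the log2 quantile-normalized total signal of a miRNA on 1 array; filled symbols are detected and the dashed line is the floor at 5.46 units. miR-291a-3p, miR-292-3p and miR-295 sit on the floor on Sham, and miR-294 on Flut+Acy+T, at 9.81, is the highest point.

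The comparison of Flut+Acy+T with Flut+Acy addresses the return of testosterone, with which the study reports restored spermatogenesis. Of the 7 members 3 were higher, 3 were lower and 1 did not pass, against 21.5% and 53.7% of the 298 miRNAs tested (75.2% in all). The median of the members was 0.26 and that of all miRNAs tested was -1.08. Since 6 members were not detected on Flut+Acy+T, most of these differences set a measured level against noise.

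On Flut+Acy+T 29.6% of the negative control spots were above the median spot of miR-294. Control spots had an SD of 1326 units there, against 2.72 and 7.45 units on the Flut+Acy pair, whose spread gives the SE. miR-294 was called detected in both groups. Its normalized log2 signal was 5.27 and 5.51 on Flut+Acy, against 9.81 with testosterone, a difference of 4.42 (SE 0.17, adjusted p = 0.0129 by limma), or 21.4-fold. Against Sham it was 4.73 higher on the log2 scale (adjusted p = 0.0176 by limma), with Sham at an undetected signal, and over the alternatives tried this difference ran from 2.53 to 8.30. Over the alternatives tried the difference from Flut+Acy stayed between 2.44 and 5.56 with adjusted p = 0.00382 to 0.0808 by limma, and it did not pass with no filter on detection or in the deposited normalized table.

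The remaining members had no detected level on Flut+Acy+T. miR-290-5p was lower there than on Flut+Acy by 0.78 on the log2 scale after quantile normalization, with 6.03 against 6.79 and 6.82 (adjusted p = 0.0114 by limma), although its signal before normalization was higher there. Scaled to the 75th percentile of the miRNAs detected on all arrays, or not normalized, it was instead higher, by 0.44 and 0.97. miR-292-3p and miR-295 differed by -0.94 and -0.95 after quantile normalization and likewise turned direction under both. miR-290-3p and miR-291a-3p were higher by 1.19 and 3.19 in the fit, but no fold is given for any of these members, since their Flut+Acy+T signals were not detected.

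Between Flut+Acy+T and Sham, 5 of the 7 members were higher, 1 was lower and 1 did not pass, against 17.4% and 48.3% of the 298 miRNAs tested (65.8% in all). The median of the members was 1.20 and that of all miRNAs tested was -0.47. On these arrays 5 of the members were not detected at all, which leaves miR-294 and miR-290-5p. miR-290-5p was lower on Flut+Acy+T by 0.47 on the log2 scale (adjusted p = 0.0265 by limma). Scaled to the 75th percentile of the miRNAs detected on all arrays it was higher by 1.83, and not normalized by 3.71, so its direction depends on the scaling. The 3 comparisons share arrays and are not independent of each other.

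The probes behind each miRNA bear on how firmly a signal belongs to it. The probes of a miRNA share 1 end, and each is 1 base longer than the last. For miR-290-5p on Flut+Acy replicate 1 the median spot of the shortest probe was 39.4 units, and the longer probes gave 69.6, 63.1 and 65.7 units. On replicate 2 they gave 54.7, 74.97, 73.4 and 73.5 units. All 20 spots of miR-290-5p were well above background on both Flut+Acy arrays, as were 2 of 20 on Sham and none on Flut+Acy+T.

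miR-294 showed a steeper order on Flut+Acy. From the shortest to the longest probe the median spot was 5.08, 14.4 and 26.6 units on replicate 1 and 15.3, 22.2 and 34.2 units on replicate 2. On Flut+Acy+T this miRNA did not show that order, with 1001, 1042 and 768 units. Of its 20 spots on Flut+Acy+T, which ran from 388 to 1859 units with a median of 977, 13 were well above background.

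Beside the miR-294 signal on Flut+Acy+T stand 2 measures of that array. Nonuniform spots made up 7 of its 20, against 2.95% of all mouse miRNA spots there, and the 13 uniform spots ran from 388 to 1205 units with a median of 723. Of the 672 negative control spots on Flut+Acy+T, 199 (29.6%) were above the median spot of miR-294 and 274 (40.8%) were above its lowest spot. On the Flut+Acy arrays 0.298% and 0.893% of the control spots were above its median there. The part of the array's noise in the miR-294 signal was not tested.

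miR-291a-3p, the closest relative of miR-294 in sequence, showed the same contrast between arrays. Its median spots from the shortest to the longest probe were 0.306, 8.80 and 18.8 units on Flut+Acy replicate 1 and 5.08, 13.3 and 20.8 units on replicate 2. On Flut+Acy+T they ran the other way, at 417, 240 and 130 units, and 5 of its 20 spots there were nonuniform. Among its 20 spots on Flut+Acy+T 2 were well above background. How much signal these related miRNAs share on the probes was not tested.

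Of the other members, miR-292-3p and miR-295 also gave more signal on their longer probe on both Flut+Acy arrays. For miR-292-3p the shorter and longer probes gave 13.0 and 21.9 units on replicate 1, and 14.7 and 25.8 units on replicate 2. For miR-295 they gave 6.01 and 14.99 units, and 8.003 and 16.02 units. The probes of miR-290-3p were closer together, from 15.2 to 17.6 units on replicate 1 and from 15.3 to 20.2 units on replicate 2. On Flut+Acy+T, where it was not detected, they climbed with length, at -27.7, 39.98, 98.2 and 330 units. The shortest probe of miR-292-5p gave close to no signal, with medians of -3.61 units on Sham, -2.91 and 0.303 units on Flut+Acy and -128 units on Flut+Acy+T, so its total signal rests on its 3 longer probes, which on Flut+Acy+T gave 14.7, 99.7 and 225 units.

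**Figure D3:**
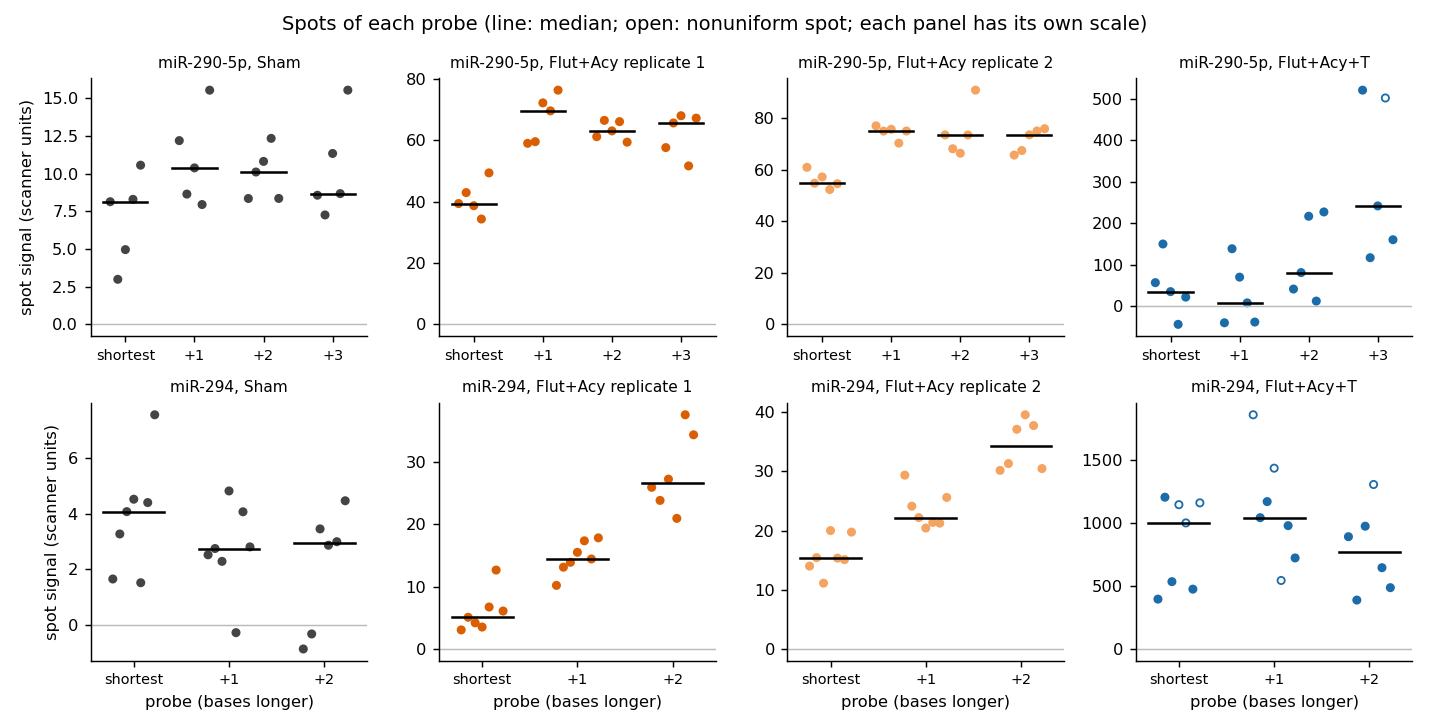
Each point is the background-subtracted signal of 1 spot, grouped by probe from the shortest to the longest, for miR-290-5p (top) and miR-294 (bottom) on the 4 arrays; lines are medians, open points are nonuniform spots, and each panel has its own linear scale. The signal of miR-294 climbs with probe length on both Flut+Acy arrays and not on Flut+Acy+T, where 7 of its 20 spots are nonuniform.

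The 7 other arms of the cluster, miR-291a-5p, miR-291b-3p, miR-291b-5p, miR-293, miR-293*, miR-294* and miR-295*, were detected on no array. Their total signals ran from -1.28 to 2.01 units on Sham, from -2.30 to 9.54 and from -1.92 to 11.9 units on Flut+Acy, and from -138 to 71.1 units on Flut+Acy+T. The nearest to detection was miR-293, with 9.54 and 11.9 units on Flut+Acy, below the 11.7 and 16.7 units of miR-291a-3p, the dimmest member detected there. Its signals were 3.50 and 3.00 times their errors, and those of miR-291b-5p 3.06 and 2.51 times theirs. The arm miR-293*, which shares the seed CUCAAAC with the 5p arms shown above (RefSeq miR-293-5p), was not detected.

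The seed AAGUGCU is carried by 5 of the 1679 mature mouse miRNAs in the RefSeq table, the 3 members shown and miR-302b-3p and miR-302d-3p. That table had no entry for miR-292-3p, so the count may leave out other miRNAs with this seed. The miR-302 cluster with miR-367 is the other large cluster of pluripotent cells. None of its 8 miRNAs on the array was detected, and their total signals reached at most 0.182 units on Sham, 0.371 and 8.16 units on Flut+Acy and 227 units on Flut+Acy+T. On Flut+Acy+T such signals were within 3 errors.

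**Figure D4:**
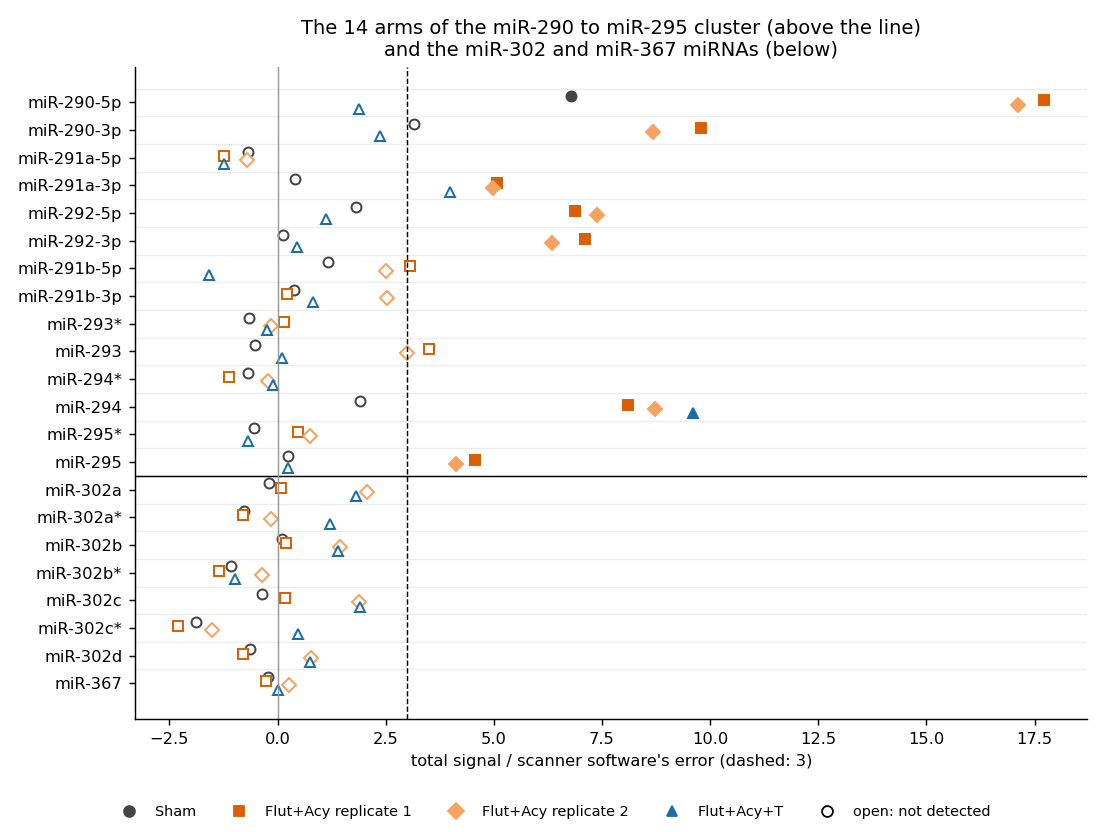
Total signal divided by its error for the 14 arms of the miR-290 to miR-295 cluster (above the line) and for the 8 miRNAs of the miR-302 cluster with miR-367 (below it) on each array; filled symbols are detected and the dashed line is at 3. Filled symbols occur for 7 arms of the first cluster and for none of the second.

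The miR-17 family, miRNAs of proliferating cells with a related seed, moved in 1 direction. Of its 6 main arms (miR-17, miR-20a, miR-20b, miR-93, miR-106a and miR-106b), 4 were detected for Sham, 6 in the Flut+Acy pair and 1 with testosterone. Over all 567 mouse miRNAs these counts were 193, 275 and 270, and 102. By limma each of the 6 was higher in Flut+Acy than Sham and lower with testosterone, with median log2 differences of 1.27 and -2.63, against 25.5% and 53.7% of all miRNAs tested. miR-17 and miR-106a were at the floor on Sham and entered the test through Flut+Acy alone, so these counts are a description. As 5 of the 6 were not detected with testosterone, the second difference sets measured levels against noise. Other scalings kept both directions of the medians, although with no filter on detection none of the 6 passed against Sham. Their signals summed to 184 units on Sham, 1752 and 2071 units on Flut+Acy, and 495 units on Flut+Acy+T, against 27.0, 179, 235 and 2206 units for the 7 members.

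Markers of other cells that a Sertoli cell preparation can hold moved with the arrays too. Of all 567 mouse miRNAs 193 were detected for Sham, 275 and 270 in the Flut+Acy pair and 102 with testosterone. Of 9 miRNAs of spermatocytes and spermatids (miR-34b and miR-34c arms, miR-449a to miR-449c, miR-122 and miR-184), 3 were detected for Sham, 6 in the Flut+Acy pair and 3 with testosterone, and their signals summed to 468 units on Sham, 7213 and 7508 units on Flut+Acy and 3062 units on Flut+Acy+T. By limma 4 of the 6 tested rose in Flut+Acy over Sham and none fell, against 25.5% and 28.5% of all miRNAs tested. Only 3 of these 6 were detected on Sham and the rest entered the test through another group, so these counts are a description. With 75th percentile scaling 6 of 6 rose. So did 111 of all 298 when scaled to the miRNAs detected on all arrays, and 84 when scaled to all miRNAs. With no filter on detection 2 of 9 rose, against 16 of all 567. With no normalization 6 of 6 rose, but so did 218 of all 298. Of 4 miRNAs listed for spermatogonia (miR-21, miR-146a, miR-221 and miR-222), 1 was detected with testosterone (miR-21) and 3 on each of the other arrays. All 3 tested fell in Flut+Acy after quantile normalization, against 28.5% of all miRNAs tested. With either 75th percentile scaling 2 of 3 fell and 0 rose, against 30 and 111 of all 298 that fell. With no normalization, where 218 of all 298 rose, 2 of 3 rose. The brightest of the 4 gave 1660 of their 1693 summed units on Sham, and the part of spermatogonia in these signals was not tested. For miR-202, a miRNA of gonadal somatic cells, Sertoli cells among them, the signals of both arms summed to 104 units on Sham, 334 and 366 units on Flut+Acy, and neither arm was detected on Flut+Acy+T. The protein-coding genes that define Sertoli cells are not on this array.

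The sets for other tissues did not rise together after quantile normalization. Of 7 miRNAs of blood cells, 3 were detected for Sham, 6 and 5 in the Flut+Acy pair and 0 with testosterone. Over all 567 mouse miRNAs these counts were 193, 275 and 270, and 102. After quantile normalization 3 of 6 tested fell in Flut+Acy against Sham and 0 rose, against 28.5% and 25.5% of all miRNAs tested. With no normalization, where 218 of all 298 rose and 0 fell, 4 rose and 0 fell. Scaled to the 75th percentile of the miRNAs detected on all arrays 2 fell and 1 rose, against 30 and 111 of all 298. Scaled to that of all miRNAs 4 fell and 0 rose, against 111 and 84. Of 5 miRNAs of muscle and peritubular cells, 3 were detected with testosterone and 5 on each of the other arrays. All 5 fell in Flut+Acy against Sham after quantile normalization, against the same 28.5%. With those 75th percentile scalings, in the same order, 3 and 5 fell and 0 rose. With no normalization 1 rose and 0 fell. Both arms of the endothelial miR-126 were detected on all arrays but Flut+Acy+T, where 1 was. The part of any of these cells in the signals of the members was not tested.

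Profiles over the 4 arrays placed the members beside different miRNAs. Likeness was measured as the distance between log2 normalized signals, each profile centred on its own mean, among 297 candidates, and with 4 arrays it is a description. The nearest to miR-290-5p was miR-669a (distance 0.12), then miR-16 and miR-709. miR-292-3p and miR-295 had miR-34a and miR-880 among their nearest 3, and miR-295 itself was second for miR-292-3p. The nearest to miR-294 was miR-469 (0.29), then let-7g* and miR-218-1*, of which the last pair were detected on Flut+Acy+T alone.

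For miR-290-3p the nearest were miR-192 (0.16), miR-298 and miR-191*, for miR-292-5p let-7f (0.20), miR-672 and let-7a, and for miR-295 the nearest was miR-201 (0.33). miR-291a-3p had no close neighbour. Its nearest, miR-467a*, was at a distance of 0.95, followed by miR-34b-3p and miR-463*. No member was the nearest neighbour of another, on profiles that include the noisy Flut+Acy+T array.

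In the deposited table of normalized intensities the order of the arrays was alike for the brightest member. miR-290-5p had 35.4 units on Sham, 58.9 and 59.6 units on Flut+Acy and 11.1 units on Flut+Acy+T. miR-292-3p had 2.59, 15.9, 15.3 and 5.36 units in the same order. miR-294 had 3.68 units on Sham, 3.77 and 10.3 units on Flut+Acy and 83.7 units on Flut+Acy+T. In that table the Flut+Acy arrays of miR-294 lay far apart and 1 of them was level with Sham.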

How the data were processed

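The authors deposited the output of Agilent Feature Extraction 9.5.3.1 for 4 one-colour miRNA arrays (1 slide, 1 scan), with intensities on a linear scale after background subtraction and no normalization between arrays, and a table of intensities that the methods describe as quantile-normalized in MATLAB, used as an alternative. The members and lists were chosen with earlier results of these data known. The 10 viral miRNAs and control spots were left out. The total signals (567 mouse miRNAs) were quantile-normalized, given a floor of 5.46 units (each array's dimmest detected miRNA after normalization, median of the 4) and log2-transformed. limma 3.58.1 in R 4.3.3 fitted all 4 arrays as 3 groups, with p-values of the 298 miRNAs that had a detection flag on any array adjusted by Benjamini-Hochberg, a threshold of 0.05 and two-sided tests. The spread has 1 residual degree of freedom, from the Flut+Acy pair, plus 0.46 of a prior whose SD is 0.01 (log2); 55 miRNAs had equal values on that pair. A lone array is thereby assumed to vary as that pair does, and the number of arrays limits the precision. Named miRNAs are the 7 members, other arms of the cluster, miRNAs with a member's seed, counts of the cell type lists, and the 3 nearest profiles of each member. Array names without an arm were matched to RefSeq by the arm the array's positions give. Alternatives were scaling to the 75th percentile of miRNAs flagged on all 4 arrays, or of all miRNAs, no normalization, processed spot signals, normexp with an offset of 50, the filter on detection set to all 4 arrays or dropped, 1 unit as the floor, the deposited table (also with 1 unit), leaving out each Flut+Acy array, the methods' analysis of variance and 3 other rules of detection. Leaving out the Flut+Acy+T array was added after seeing the data. The order of the arrays in the deposited table was taken from its column names. Figures were drawn with matplotlib 3.10.9. The real-time PCR and tissue experiments are not analysed here.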

Additional observations from a re-analysis of the deposited data

How the results depend on the processing

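Counts of calls by limma depended on the filter. Flut+Acy against Sham gave 161 calls (76 higher, 85 lower), 42 over the miRNAs detected on all 4 arrays, which hold no member, and 63 with no filter, and 164 without the Flut+Acy+T array. Flut+Acy+T against Flut+Acy gave 224 (64 higher, 160 lower) and 42, and Flut+Acy+T against Sham 196 (52 higher, 144 lower) and 23, over the same miRNAs. Over the 3 groups together limma called 225; the methods' analysis of variance called 130 unadjusted and 0 after Benjamini-Hochberg, with no p for 55 miRNAs of equal Flut+Acy values. Splits moved with scaling: for Flut+Acy against Sham 111 higher and 30 lower when scaled to the 75th percentile of miRNAs flagged on all arrays, 218 and 0 with no normalization and 69 and 51 in the deposited table; for Flut+Acy+T against Flut+Acy 86 and 127 with no normalization; for Flut+Acy+T against Sham 95 and 85, and 180 and 56, with those first 2 settings. The median of all miRNAs tested, Flut+Acy against Sham, moved from -0.15 to 0.35 with that scaling and to 1.68 with no normalization. Members detected on Sham went from 1 to 2 where a signal had to exceed 3 times its error and to 0 where all unflagged spots of a probe had to be well above background. The latter rule gave 4 and 3 in place of 7 on the Flut+Acy arrays. On Flut+Acy+T 1 became 3 with 1 spot well above background and 2 with 3 times the error. Of 167 differences of members under alternatives 13 were counted as reversed, and the cause was not tested. With the same 75th percentile scaling and with no normalization these were, against Flut+Acy, Flut+Acy+T values of 0.44 and 0.97 for miR-290-5p, 0.67 and 1.20 for miR-292-3p and 0.49 and 1.02 for miR-295, 1.83 and 3.71 for miR-290-5p against Sham, and 0.73 and 2.08 for miR-290-3p in Flut+Acy against Sham. In the deposited table they were 0.37 for miR-290-3p in Flut+Acy against Sham, and -0.24 for miR-290-3p and -1.29 for miR-292-5p in Flut+Acy+T against Flut+Acy. Not counted was miR-292-5p in Flut+Acy against Sham, which did not pass and went from 0.07 to -0.06 without Flut+Acy replicate 2. With no filter, 4 members that passed lost their call in Flut+Acy against Sham, with adjusted p by limma of 0.0668 for miR-292-3p, 0.115 for miR-291a-3p and miR-295 and 0.137 for miR-290-5p. Leaving out either Flut+Acy array left no degree of freedom and gave values with no test, between 0.30 and 0.32 for miR-290-5p and between 3.06 and 3.17 for miR-292-3p in Flut+Acy against Sham, and between 4.04 and 4.28 for miR-294 in Flut+Acy+T against Flut+Acy. No paired analysis was possible because Flut+Acy alone has more than 1 array, so no replicate number is shared by 2 arrays of each group.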
